A study of Mus musculus with 6 samples.

Results

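The cytosolic ribosomal protein genes of mouse hippocampus were followed from sham operation to cerebral ischemia/reperfusion (I/R). Members were the genes whose names begin with Rpl (large subunit) or Rps (small subunit) and a digit, without the Rps6k kinases and without pseudogene names, and with at least 10 reads over the 6 libraries. The rule found 75 genes of 41386 in the table, of which 43 carried a large subunit name and 32 a small subunit name. They lay on 19 chromosomes, with 13 on chromosome 7. In 60 of them the table's pathway text also named a ribosomal protein. Of the remaining genes, Rps19bp1 encodes a binding partner of a ribosomal protein and is no part of the ribosome, but it met the naming rule.

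Bulk RNA-seq had been run on hippocampus of 56-day-old wild type C57BL/6 mice, with 3 I/R and 3 sham libraries. In I/R mice the middle cerebral artery was occluded (MCAO) for 1.5 h and reperfused for 24 h, and sham mice had the operation alone. Per the study's methods the hippocampi came from the operated side and several were pooled per library, so errors describe the spread between pools. The total counts were 37493042 to 44788547 per library, and no sample carried a genetic change.

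The cytosolic ribosome translates nuclear-encoded mRNAs into protein. The small subunit reads the codons, and the large subunit joins the amino acids. Nearly every ribosomal protein is present once per ribosome, so their genes are expressed at related levels. Their mRNAs commonly start with a C followed by a run of pyrimidines, the 5′ terminal oligopyrimidine (TOP) motif, through which growth signalling by mTOR controls their translation. Paralogs with names ending in l or l1 encode close relatives of a core protein, and some are known as tissue-restricted or stress-responsive forms.

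The start sites of the members with the greatest and the lowest change are shown because the TOP motif is read from these letters. Each line gives 15 bases before and 15 from the annotated start on, from RefSeq on GRCm38.p6, read on the strand of the gene, with the longest run of C and T in capitals. Where RefSeq lists several starts, the one listed first is shown. Of the 6 members with the greatest change these were the following.
Rps27l (chr9:66946071-66946100, plus strand): ccaCTCCTCCCCgccgcctctatcccggaa
Rpl22l1 (chr3:28805493-28805522, plus strand): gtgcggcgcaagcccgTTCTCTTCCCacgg
Rpl28 (chr7:4792950-4792979, plus strand): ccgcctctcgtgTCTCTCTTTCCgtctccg
Rps18 (chr17:33955651-33955680, minus strand): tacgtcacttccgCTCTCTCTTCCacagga
Rps26 (chr10:128626492-128626521, minus strand): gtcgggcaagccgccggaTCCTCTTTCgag
Rps19 (chr7:24884577-24884606, plus strand): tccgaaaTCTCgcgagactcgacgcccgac
Of the members with the lowest change, the starts below were used, and Rpl3 had none.
Rps15 (chr10:80292416-80292445, plus strand): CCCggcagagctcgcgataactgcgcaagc
Rpl3l (chr17:24727811-24727840, plus strand): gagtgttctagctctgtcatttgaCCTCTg
Rps19bp1 (chr15:80264292-80264321, minus strand): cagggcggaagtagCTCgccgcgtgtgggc
Rps21 (chr2:180257364-180257393, plus strand): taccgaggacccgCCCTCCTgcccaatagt
Rpl24 (chr16:55966260-55966289, plus strand): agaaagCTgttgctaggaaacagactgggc

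At the starts shown, the longest pyrimidine run covered or followed the start by a few bases in Rpl22l1, Rpl28, Rps18 and Rps26. It lay before the start in Rps27l and Rps19. At the other starts listed for Rps19 the run followed the start. The window used next begins before the start, so a run wholly before it, as in Rps27l, can count. Of 57 members with a RefSeq promoter, 29 (50.9%) had a C followed by at least 6 pyrimidines within the window from 10 bases before to 20 after an annotated start, against 15.6% of all 27025 symbols in the promoter table. Members with such a run had a median log2 fold change of 0.78 over 28 tested genes, and those without one of 0.69 over another 28. The letters CCGGAAGT, in either direction and within 300 bases around the start, were found in 17.5% of the members and in 4.31% of all symbols, and TATAAA in 10.5% and 15.7%. These are matches of letters and were not tested as sites.

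Levels in sham were compared on the FPKM scale, which divides reads by gene length. In 74 members that entered the test, the median sham level was 223 FPKM (quartiles 138 and 307), and 58 members were at 100 FPKM or more. The small subunit genes Rps21, Rps15 and Rps29 were highest, at 685 ± 39.7, 669 ± 49.5 and 648 ± 62.3 FPKM (SD, n = 3). These neighbours in the order did not differ beyond their spread. Lowest were Rpl3l at 0.278 ± 0.110, Rpl24 at 1.95 ± 0.169 and Rpl22l1 at 4.53 ± 0.399 FPKM.

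Of the 10 members under 50 FPKM, Rpl3l, Rpl7l1, Rpl22l1 and Rps27l are paralogs and Rps19bp1 is no ribosomal protein. The other 5 were Rpl18, Rpl23, Rpl24, Rpl37a and Rps20, which encode core proteins of the ribosome. Several features of the table touch these levels. The row of Rpl24 overlapped another gene on the same strand, and that of Rpl18 overlapped Sphk2 on the opposite strand. The listed lengths ran from 404 to 5179 bases, but the deposited FPKM did not follow them in every gene. In sham replicate 1, Rps20 (listed length 3720 bases, 2014 reads) was at 36.7 FPKM and Rpl7l1 (2611 bases, 2096 reads) at 18.9 FPKM. In GENCODE M21 transcripts, 71 of 75 members shared stretches of 50 bases with other genes, for a median of 31.3% of their stretches, and how the counting treated such reads is not stated. Low counts of a core gene are uncertain for that reason, and the part of these features in the spread was not tested.

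**Figure D1:**
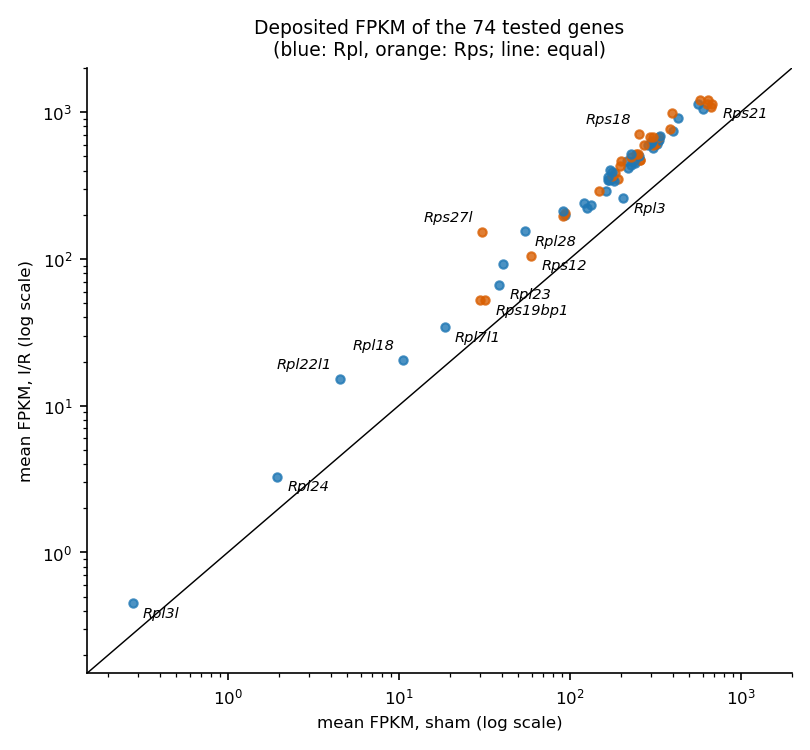
Mean deposited FPKM of the 74 tested ribosomal protein genes in sham (x axis) and I/R (y axis), both on log scales, with large subunit names in blue, small subunit names in orange and a line of equal values. All points lie above the line, most genes are at 100 FPKM or more in sham, and Rpl3l, Rpl24 and Rpl22l1 are the lowest. These FPKM are not scaled by TMM, and on log2(FPKM + 0.1) the median change of all tested genes was 0.26.

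The first question was whether the ribosomal protein genes differed between I/R and sham. Ribosomal protein mRNA took 2.94%, 2.28% and 2.32% of all counts in the 3 I/R libraries, in the order of their replicate numbers, against 1.25%, 1.32% and 1.24% in sham. The summed level was 25496, 21361 and 21839 CPM in I/R, against 13534, 14534 and 13510 CPM in sham, where CPM is the count scaled to a common library size after TMM (trimmed mean of M-values) correction. The groups did not overlap, and I/R replicate 1 was the highest. The mean was 22899 ± 2262 in I/R, against 13860 ± 584 in sham (SD, n = 3), a ratio of 1.65. The ratio was 1.56 without I/R replicate 1 and 1.98 when libraries were scaled by size alone.

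Of 74 tested members, 68 rose and 0 fell in I/R (edgeR quasi-likelihood test, Benjamini-Hochberg adjusted over 18569 genes, with a call where the adjusted p was below 0.05 and the fold change above 1.2). Of all tested genes, 21.8% were called higher and 19.9% lower. The median log2 fold change of the members was 0.73 (quartiles 0.63 and 0.84), beside 0.03 over all tested genes. In 69 members every I/R library was above every sham library, and in 0 members every one was below, against 29.3% and 28.1% of all tested genes. Of the 6 members that were not called, all had a fitted change above 0.

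Bulk tissue cannot tell fewer cells of a type from less RNA per cell, and the cell type markers, which include those of hippocampal neurons in every library, moved between the groups. All 7 tested neuron markers and 5 of 5 dentate granule cell markers fell, and 6 of 7 tested monocyte and macrophage markers rose. The summed neuron markers were at 2188 to 5556 CPM in I/R, against 12394 to 12630 in sham, and those of monocytes and macrophages at 206 to 433 and 14.9 to 17.4. Of the other lists, 4 of 8 microglia markers rose and 3 fell (379 to 530 CPM in I/R, against 285 to 320 in sham), and 6 of 7 endothelial and mural markers rose and 1 fell (405 to 617, against 294 to 297). Of 7 astrocyte markers 2 rose and 3 fell, of 7 oligodendrocyte markers 3 fell, and of 5 tested neutrophil markers 3 rose (10.1 to 38.3 CPM, against 4.30 to 5.76), with 2 of 7 neutrophil markers at or under 3 counts in every library. The part of these shifts in the rise of the ribosomal protein genes was not tested. The choroid plexus markers differed between libraries of both groups, from 146 to 4918 CPM in I/R and from 175 to 6250 in sham, and with their mean level as a covariate 68 members were called higher, with Rps15 no longer among them and Rpl18 added.

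**Figure D2:**
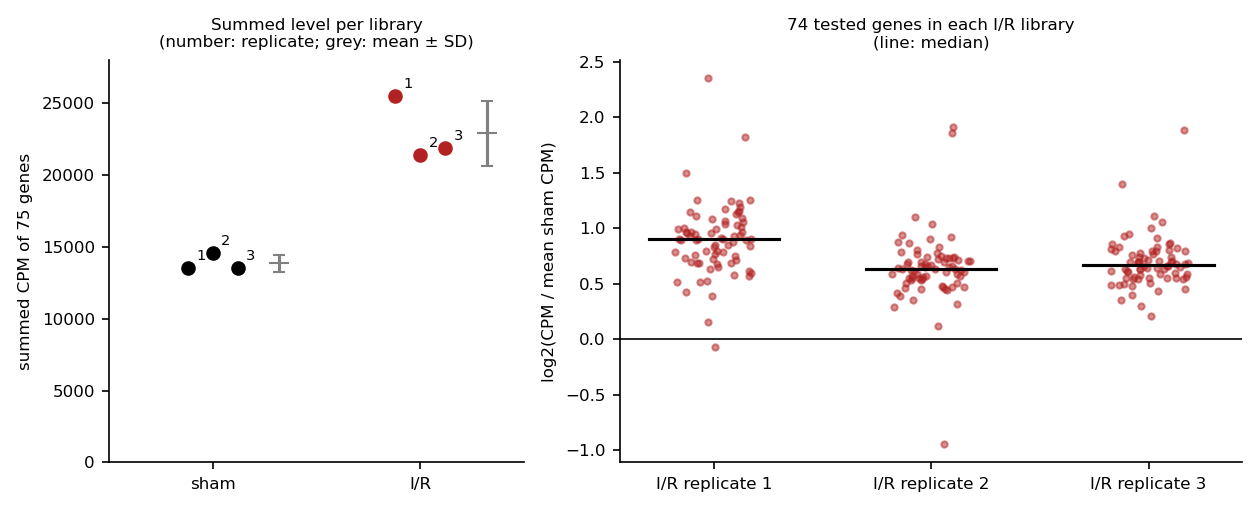
Left, summed CPM of the 75 ribosomal protein genes in each library (points, numbered by replicate) with the mean ± SD of 3 in grey. Right, log2 ratio of each of the 74 tested genes to its sham mean in each I/R library, with the median as a line at 0.90, 0.63 and 0.67; the I/R sums are all above the sham sums, and I/R replicate 1 is highest in both panels.

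Genes of both subunits rose. Among large subunit names 37 of 42 tested genes were called higher with a median log2 fold change of 0.73, and among small subunit names 31 of 32 with a median of 0.77. The summed large subunit level divided by that of the small subunit was 1.10, 1.16 and 1.14 in I/R, against 1.18, 1.16 and 1.17 in sham. Every I/R library was below every sham library, by a narrow margin (1.157 against 1.164 for the nearest pair), and no test was run on this score. Both sums are incomplete. No member was named Rpl6, Rpl10, Rpl27, Rpl29 or Rpl41, and Rplp0, Rplp1, Rplp2 and Rpsa fall outside the naming rule. Rps19bp1 is in the small subunit sum. The difference between the subunits was not tested. The SD of the log2 fold changes was 0.22 over large and 0.29 over small subunit names.

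The median member stood 0.90, 0.63 and 0.67 above its sham mean on the log2 scale in I/R replicates 1, 2 and 3. All tested genes had medians of 0.02, 0.01 and 0.01 in the same libraries. Replicates of a group lay close together for most members, with a median ratio of the highest to the lowest library of 1.12 in sham and 1.22 in I/R, beside 1.18 and 1.37 for all tested genes. The fold changes showed little relation to the sham FPKM (Spearman's rho -0.05), to the listed length (-0.09) or to the share of stretches held in common with other genes (0.07), each across 74 genes that share the same libraries. The 33 tested members without an overlapping row had a median log2 fold change of 0.75, and the 41 with one of 0.73.

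**Figure D3:**
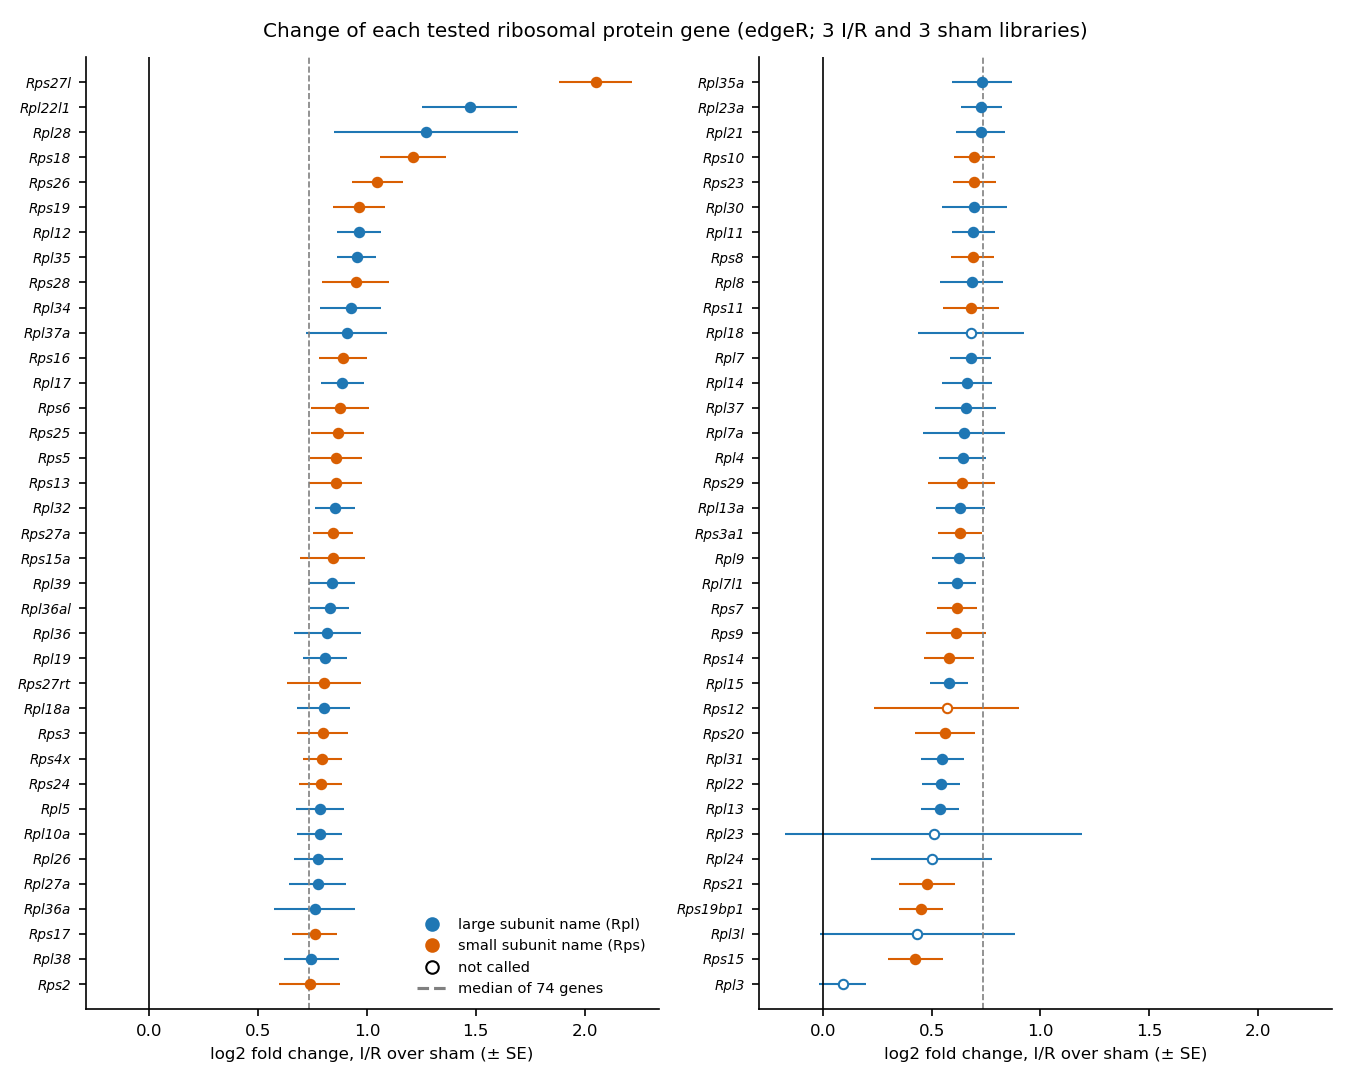
Log2 fold change ± SE of each of the 74 tested ribosomal protein genes (edgeR), ranked from the top of the left panel to the bottom of the right panel, with large subunit names in blue, small subunit names in orange, genes that were not called as open circles and the median of 0.73 as a dashed line. Rps27l, Rpl22l1 and Rpl28 are at the top, Rpl3 is at the bottom near 0, and most genes lie close to the dashed line.

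Rps27l had the greatest change. It encodes a paralog of the small subunit protein of Rps27 and is known as a target of p53. It lies at chr9:64244398-64254787 on the plus strand of the BALB/cJ assembly, whose annotation the table uses (MGP_BALBcJ_G0034956). Its level was 76.9, 54.6 and 55.7 CPM in I/R, against 12.9, 17.0 and 15.3 CPM in sham. Every I/R library was over 3 times the highest sham library. The log2 fold change was 2.05 ± 0.17 (SE, edgeR adjusted p = 0.000315), a 4.14-fold rise, and it was called under all 16 alternative settings.

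Rpl22l1 came second. It encodes the paralog of Rpl22, a large subunit protein, and lies at chr3:25629720-25633458 on the plus strand. Its level was 11.4, 6.90 and 8.47 CPM in I/R, against 2.87, 3.39 and 3.37 CPM in sham. The groups did not overlap, and the log2 fold change was 1.47 ± 0.22 (edgeR adjusted p = 0.00188).

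Rpl28, a large subunit gene, was less certain. It had 35.3, 101.5 and 58.0 CPM in I/R, against 41.5, 20.98 and 18.2 CPM in sham. The groups overlapped, since sham replicate 1 was above I/R replicate 1. The change on the log2 scale was 1.27 ± 0.42 (edgeR adjusted p = 0.0425), and it lost its call under 9 of 16 alternatives, with adjusted p between 0.0186 and 0.217 and a change of 0.77 without I/R replicate 2. Its row overlapped an unnamed gene on the opposite strand that had 15449 reads in all. That gene rose by 0.28 on the log2 scale (edgeR adjusted p = 0.0396).

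The small subunit genes Rps18, Rps26 and Rps19 followed. Rps18 was at 463, 337 and 341 CPM in I/R, against 152, 180 and 160 CPM in sham, with a log2 fold change of 1.21 ± 0.15 (edgeR adjusted p = 0.00101). Its row overlapped that of Vps52 on the opposite strand, which fell by 0.35 on the log2 scale (adjusted p = 0.0096). Rps26 was at 463, 373 and 370 CPM in I/R, against 197, 195 and 192 CPM in sham. Its log2 fold change was 1.05 ± 0.12 (edgeR adjusted p = 0.000745). Rps19 was at 399, 327 and 326 CPM in I/R, against 175, 195 and 170 CPM in sham, with 0.96 ± 0.12 (edgeR adjusted p = 0.000994). In all 3 genes the I/R libraries were above the sham libraries, and I/R replicate 1 was the highest.

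At the other end, Rpl3 showed the least change. It encodes a large subunit protein near the site where amino acids are joined. Its level was 290, 332 and 353 CPM in I/R, against 300, 310 and 304 CPM in sham. The groups overlapped, with I/R replicate 1 below all sham libraries, and the log2 fold change was 0.09 ± 0.11 (edgeR adjusted p = 0.525). Its row at chr15:77611574-77631361 on the minus strand overlapped that of Syngr1, a gene of synaptic vesicles on the opposite strand that had 126697 reads in all and fell by 1.12 on the log2 scale (adjusted p = 0.00267). Whether the counting used strand is not stated, so reads of the 2 genes cannot be told apart where they overlap. On the deposited FPKM, which are not scaled by TMM, Rpl3 was at 245, 260 and 275 in I/R, against 203, 207 and 205 in sham, and it was called higher there.

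Rps15, Rps21 and Rps19bp1 had small changes that passed the test. Rps15 was at 531, 424 and 441 CPM in I/R, against 329, 379 and 331 CPM in sham, with a log2 fold change of 0.43 ± 0.13 (edgeR adjusted p = 0.0293). Rps21 was at 513, 397 and 418 CPM in I/R, against 320, 337 and 297 CPM in sham, with 0.48 ± 0.13 (edgeR adjusted p = 0.0197). Rps19bp1 was at 42.9, 40.0 and 35.6 CPM in I/R, against 27.8, 30.0 and 29.0 CPM in sham, with 0.45 ± 0.10 (edgeR adjusted p = 0.00896). The groups did not overlap in any of them. Rps15 lost its call under 6 alternatives, among them the fit without any 1 of the sham libraries, and Rps21 under 4, with these same 3 included. Rps19bp1 lost its call with length offsets (adjusted p = 0.196). Rps29, among the highest by FPKM, was at 553, 385 and 466 CPM in I/R, against 266, 324 and 312 CPM in sham, with 0.64 ± 0.16 (edgeR adjusted p = 0.013). It lost its call with length offsets (adjusted p = 0.122) and without sham replicate 1 (adjusted p = 0.0621).

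The other members that were not called varied between replicates or had few reads. Rpl23, whose protein is known to bind Mdm2, was at 64.8, 14.3 and 38.7 CPM in I/R, against 48.1, 25.9 and 8.69 CPM in sham. Its highest library was 5.54 times its lowest in sham and 4.53 times in I/R, and the log2 fold change of 0.51 ± 0.68 turned to -0.06 without I/R replicate 1. Rps12 was at 49.3, 41.0 and 46.5 CPM in I/R, against 18.9, 22.7 and 50.7 CPM in sham. Without sham replicate 3, the one library that set the groups to overlap, its log2 fold change was 1.12 and passed the test (edgeR adjusted p = 0.00577), against 0.57 ± 0.33 with it (edgeR adjusted p = 0.206).

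Rpl18 was at 16.6, 13.3 and 16.0 CPM in I/R, against 6.60, 8.90 and 13.2 CPM in sham. The groups did not overlap by a narrow margin, and the log2 fold change of 0.68 ± 0.24 missed the threshold (edgeR adjusted p = 0.0536). It was called higher under 8 of 16 alternatives, among them the fit without sham replicate 3 (log2 fold change 0.97, edgeR adjusted p = 0.0158). Rpl24 had 56, 68 and 71 reads in I/R, against 46, 41 and 39 in sham, with 0.50 ± 0.28 (edgeR adjusted p = 0.185). These misses do not show that the genes were at equal levels.

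The second question was which members changed by more or less than the family as a whole. Libraries were rescaled so that the median tested member was equal in all of them, and the same edgeR test was run. Rps27l (log2 difference from the family 1.29 ± 0.13, adjusted p = 0.000211), Rpl22l1 (0.70 ± 0.19, adjusted p = 0.00991) and Rps18 (0.45 ± 0.14, adjusted p = 0.0186) were above the family. On this scale 6.72% of all tested genes were called above. Rpl3 (-0.65 ± 0.17, adjusted p = 0.00952) and Rps19bp1 (-0.30 ± 0.11, adjusted p = 0.0333) were below, as were 59.9% of all tested genes. Of 74 members, 69 were not called apart from the family at this depth and number of libraries. The scaling used the members themselves, so their centre was set in advance. The count therefore does not show how evenly the family moved. The number above was 6 without I/R replicate 1 and the number below was 4, against 3 and 2 with it. The number above was 2 without sham replicate 1, without sham replicate 2 and with the replicate number as a block. The number below was 1 without I/R replicate 3 or any 1 of the sham libraries.

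The paralogs were then set against their sister genes as the ratio of reads within each library, which does not correct for length and so compares libraries and not genes. Rps27l was compared with the row named Rps27rt at chr3:87453803-87454892 on the minus strand. RefSeq places Rps27 on chromosome 3 and Rps27rt on chromosome 9, and the other 74 members had the chromosome that RefSeq gives for their name. That row was at 656, 428 and 458 CPM in I/R, against 286, 311 and 287 CPM in sham and rose by 0.80 ± 0.17 on the log2 scale (edgeR adjusted p = 0.00748). Rps27l had 11.7%, 12.8% and 12.1% of its level in I/R, against 4.51%, 5.45% and 5.33% in sham. The log2 ratio was higher by 1.26 in I/R, and 3 of 3 I/R libraries exceeded every sham library (two-sided exact permutation test, p = 0.1, adjusted p = 0.2 over 4 pairs). With 3 libraries against 3 this test cannot go below 0.1.

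Rpl22l1 had 5.76%, 3.94% and 4.75% of the level of Rpl22 in I/R, against 2.25%, 2.67% and 2.73% in sham. The difference in log2 ratio was 0.91, again with no overlap of the groups (exact permutation p = 0.1, adjusted p = 0.2). Rpl22 itself was at 197, 175 and 178 CPM in I/R, against 128, 127 and 123 CPM in sham and rose by 0.54 ± 0.09 (edgeR adjusted p = 0.00234).

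The other 2 pairs had overlapping ratios. Rpl36al had 65.2%, 97.0% and 89.4% of the level of Rpl36a in I/R, against 73.9%, 75.4% and 81.8% in sham, with a difference in log2 ratio of 0.10 (exact permutation p = 0.6, adjusted p = 0.6). Rpl7l1 had 22.8%, 21.3% and 19.3% of the level of Rpl7 in I/R, against 22.1%, 21.6% and 22.5% in sham, with a difference of -0.06 (exact permutation p = 0.6, adjusted p = 0.6). All 4 genes passed the test. Rpl36al changed by 0.83 ± 0.09 on the log2 scale and Rpl36a by 0.76 ± 0.19 (edgeR adjusted p = 0.000678 and 0.0131). Rpl36a lost its call with length offsets (adjusted p = 0.0563), without sham replicate 1 (adjusted p = 0.0525) and without sham replicate 3 (adjusted p = 0.056), and its change was 0.50 without I/R replicate 1. Rpl7l1 changed by 0.62 ± 0.09 and Rpl7 by 0.68 ± 0.09 (edgeR adjusted p = 0.00158 and 0.00148).

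Rpl36al was at 166, 150 and 148 CPM in I/R, against 81.2, 91.8 and 88.0 CPM in sham, and Rpl36a at 255, 154 and 166 CPM in I/R, against 110, 122 and 108 CPM in sham. Rpl36a was highest in I/R replicate 1, with the other I/R libraries also above all sham libraries, and Rpl36al was even across the I/R libraries. Rpl7l1 was at 88.3, 80.6 and 75.2 CPM in I/R, against 53.7, 54.1 and 51.3 CPM in sham, and Rpl7 at 387, 378 and 390 CPM in I/R, against 243, 250 and 228 CPM in sham. Both genes of this pair were even within each group.

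**Figure D4:**
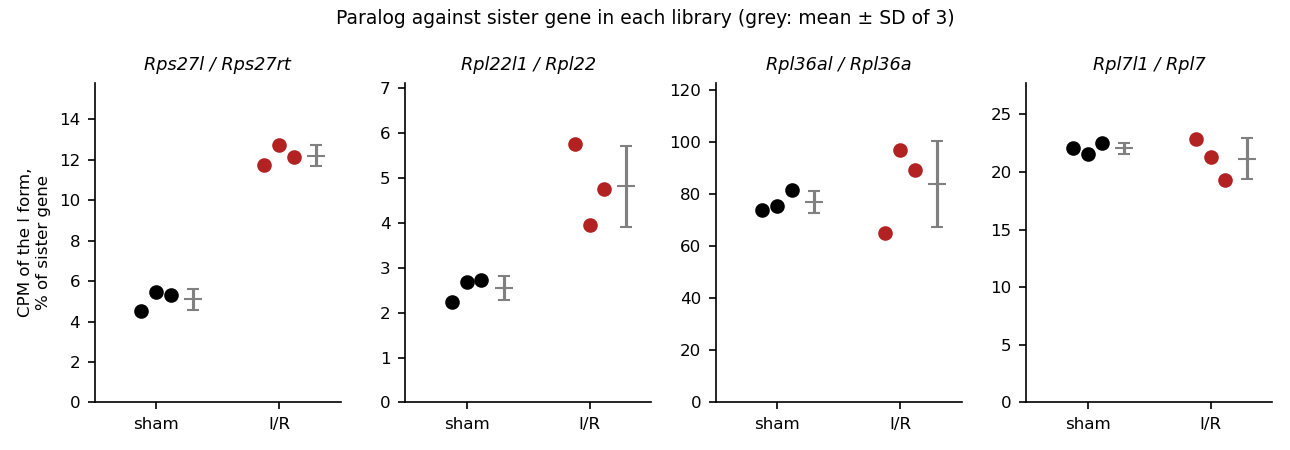
CPM of each l form as a percentage of its sister gene in each sham (black) and I/R (red) library, with the mean ± SD of 3 in grey; each panel has its own axis from 0. For Rps27l and Rpl22l1 all I/R libraries are above all sham libraries, and for Rpl36al and Rpl7l1 the groups overlap.

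The tissue-restricted paralogs were near the limit of detection. Rpl3l, a paralog of Rpl3 known from heart and skeletal muscle, had 20, 18 and 18 reads in I/R, against 18, 13 and 7 in sham, with a log2 fold change of 0.43 ± 0.45 (edgeR adjusted p = 0.471). Rpl39l, known from testis, had 7, 1 and 6 reads in I/R, against 1, 0 and 1 in sham and was not tested. Its sister Rpl39 was at 258, 205 and 216 CPM in I/R, against 128, 126 and 126 CPM in sham and rose by 0.84 ± 0.11 (edgeR adjusted p = 0.00112). Rpl10l, also known from testis, had 0 reads in all 6 libraries, which allows a level of up to 0.0659 to 0.0871 CPM per library by counting error, and it was left out by the read minimum.

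The ribosomal proteins whose names fall outside the rule were given from a separate list of 8 symbols. Of these, 6 were in the table and 5 were tested. All 5 rose, and over all tested genes the shares called were 21.8% higher and 19.9% lower. The stalk proteins Rplp0, Rplp1 and Rplp2 changed by 1.22 ± 0.12, 0.58 ± 0.12 and 0.78 ± 0.26 on the log2 scale (edgeR adjusted p = 0.000506, 0.00601 and 0.0402). The small subunit protein Rpsa changed by 0.96 ± 0.11 and Rack1, which docks signalling proteins on the small subunit, by 0.96 ± 0.12 (edgeR adjusted p = 0.000849 and 0.00101). Fau was near 0 in all libraries, which for a core ribosomal gene leaves its count uncertain.

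Other gene families were set beside the ribosomal protein genes. They share the same libraries, and their difference from the ribosomal protein genes was not tested. Over all tested genes the shares called were 21.8% higher and 19.9% lower. Of the mitochondrial ribosomal protein genes, whose products translate mitochondrial mRNAs, 22 of 74 (29.7%) rose, a share near that of all genes, and 2 fell, with a median log2 fold change of 0.11. Of the proteasome genes, 31 of 39 rose and 0 fell, with a median of 0.58. Of the genes whose names begin with Eif and a digit, 27 of 51 rose and 3 fell, with a median of 0.33. This set is wider than initiation factors. It includes Eif4ebp1, Eif5a2 and other genes that are counted again in lists below. Of the Nduf genes of respiratory complex I, with a median listed length of 1072 bases, 1 of 45 rose and 5 fell, with a median of -0.10.

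**Figure D5:**
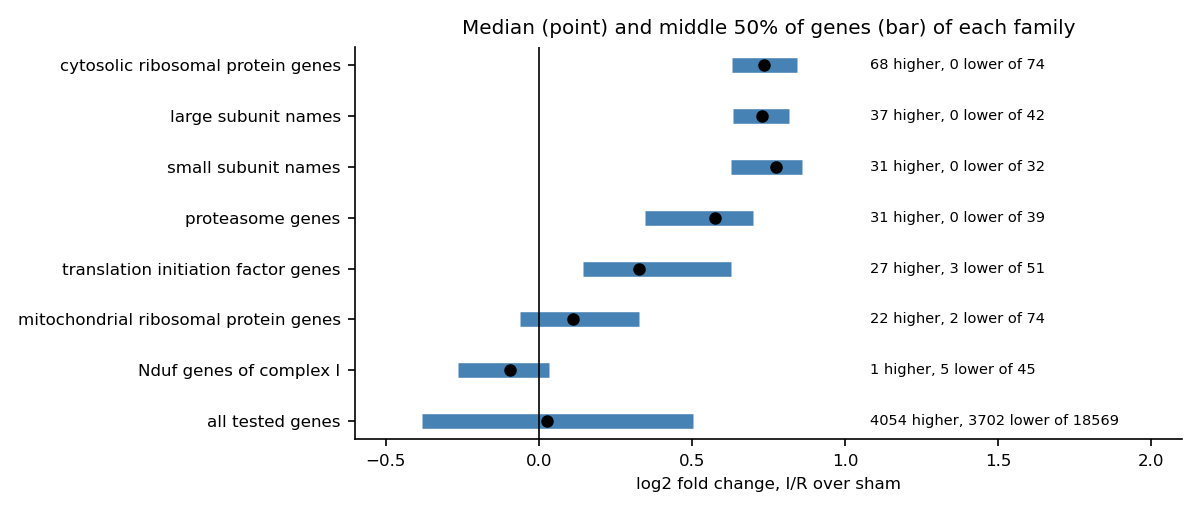
Median (point) and middle 50% (bar) of the log2 fold changes of each gene family, with the number of genes called higher and lower of those tested at the right. The cytosolic ribosomal protein genes and both of their subunit groups lie above 0.6 at the lower end of the bar, and the mitochondrial ribosomal and Nduf genes lie around 0. The bar of translation initiation factor genes covers all names that begin with Eif and a digit.

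Listed length differed between the members and other genes. Members had a median listed length of 953.5 bases and all tested genes of 2876. With offsets that took out a trend on length in each library, the median of the members was 0.47 and 58 were called higher, and the median of all genes was -0.10. The family medians were then -0.09 for mitochondrial ribosomal, 0.33 for proteasome, 0.21 for Eif and -0.34 for Nduf genes. The order of these medians was the same as without the offsets.

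Genes that make ribosomes were higher in many cases. Over all tested genes the shares called were 21.8% higher and 19.9% lower. Of 45 tested ribosome biogenesis factors, 38 rose and 0 fell, with a median log2 fold change of 0.74. The helicase Ddx21 (1.61 ± 0.13, edgeR adjusted p = 0.00033) and the nucleolar GTPase Gnl3 (1.60 ± 0.11, adjusted p = 0.000215) were at the top. Nop10 (-0.21 ± 0.13, adjusted p = 0.236) and Bop1 (-0.19 ± 0.08, adjusted p = 0.0923) were at the bottom and did not pass. Of 13 genes of RNA polymerase I, which transcribes ribosomal RNA, 10 rose and 0 fell. Taf1d (1.58 ± 0.19, adjusted p = 0.000899) and Polr1e (1.13 ± 0.18, adjusted p = 0.00229) were the highest. Ubtf (-0.09 ± 0.10, adjusted p = 0.493) and Znrd1 (0.28 ± 0.11, adjusted p = 0.0737) were the lowest and were not called.

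Of 12 other genes known for TOP mRNAs, 9 rose and 0 fell, with a median of 0.62. Vim, which encodes the filament vimentin of glial and vascular cells, changed by 3.51 ± 0.28 (edgeR adjusted p = 0.000291) and Tpt1 by 0.92 ± 0.10 (adjusted p = 0.000732). The initiation factor gene Eif4b (-0.08 ± 0.09, adjusted p = 0.509) and Nap1l1 (-0.0007 ± 0.09, adjusted p = 0.996) were not called. Of 11 tested genes listed under elongation and termination, 7 rose and 1 fell. For both lists the shares over all tested genes were 21.8% higher and 19.9% lower. The release factor gene Etf1 (0.79 ± 0.08, adjusted p = 0.000588) and Eef1e1 (0.70 ± 0.09, adjusted p = 0.000976) were the highest of the latter list. Eef1e1 stands in that list by its name. Eef1a2, the elongation factor form of neurons and muscle, fell by 0.61 on the log2 scale (SE 0.13, adjusted p = 0.00782), and Eif5a2 was at -0.53 ± 0.24 (adjusted p = 0.108).

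Among 20 regulators of TOP mRNA translation and of ribosomal protein genes, 9 rose and 3 fell, beside 21.8% and 19.9% of all tested genes. Falls were thus no more common in this list than over all genes. Eif4ebp1, which encodes an inhibitor of translation initiation that mTOR controls, changed by 2.96 ± 0.23 on the log2 scale (edgeR adjusted p = 0.00028). Myc, a transcription factor that drives ribosome production, changed by 1.97 ± 0.19 (adjusted p = 0.000472). Mycn fell by 0.80 (SE 0.16, adjusted p = 0.00553) and Mtor by 0.40 (SE 0.08, adjusted p = 0.00584).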

How the data were processed

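RNA of mouse hippocampus was sequenced in 3 I/R and 3 sham libraries. The authors aligned reads with TopHat2 to an Ensembl genome, and the identifiers are those of the BALB/cJ annotation; the submitters' processing notes name Bowtie 0.12.2 and the build mm8. The deposited counts are raw reads per gene from HTSeq. The deposited FPKM values were computed by the authors from reads, gene length and library size, with a length that was not the listed one in every gene. The authors' own columns of group means, fold changes, p-values and significance calls were not used. Strand use and the handling of multiply aligned reads are not stated.

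The 4 split lines of the table were rejoined. Counts were filtered with filterByExpr, scaled by TMM and tested with edgeR 4.0.16 (glmQLFit, robust) in R 4.3.3 on all 6 libraries without covariates, with Benjamini-Hochberg adjustment over 18569 genes. Calls needed an adjusted p below 0.05 together with a fold change above 1.2. The SE was the log2 fold change divided by the square root of F. DESeq2 1.42.0 and limma 3.58.1 on log2(FPKM + 1) and log2(FPKM + 0.1) were alternatives, beside other scalings, no filter, a replicate block, length offsets, a choroid plexus covariate and each library left out. At this depth 3 counts were worth 0.0659 to 0.0871 CPM per library, and such limits cover counting error only.

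The rule leaves out names ending in ps and digits. Read by the letter it would drop Rps10 and its like, so it was read as the pseudogene ending (a hyphen, ps and digits), after seeing the table; this left out 5 pseudogene names and 10 Rps6k names. Members and lists were chosen with earlier results of these data known. Values per library are given for the 6 tested members with the greatest and the 6 with the lowest change, the 3 highest and 3 lowest in sham FPKM, paralogs and their sister genes, members not called and members apart from the family; names ending in a, such as Rpl7a, encode separate proteins and were not taken as paralogs of the name without it; of each list, the 2 highest and 2 lowest changes. The sister of Rps27l, the genes Syngr1, Vps52 and Sphk2, and the core genes named for low FPKM were chosen after values were seen. Start sites were taken from RefSeq promoters (GRCm38.p6) by symbol, and shared stretches of 50 bases from GENCODE M21 coding transcripts with Python 3.11.15. For the row named Rps27rt both were taken under the symbol Rps27.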

Additional observations from a re-analysis of the deposited data

Results flagged for a closer look

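With 3 libraries per group no test for a single distant library was applied. Rows outside the comparisons carried signal as well. Rpl36-ps3, a pseudogene name, had 7, 9 and 17 reads in the I/R libraries (33 in all) and 2, 1 and 0 in the sham libraries. Of the rows with no gene name whose pathway text names a ribosomal protein, 27 of 27 tested were called higher in I/R by edgeR, with a median log2 fold change of 0.86 and a range from 0.43 to 3.92. Of all tested genes 21.8% were called higher. The unnamed rows carry no name that the rule could match. What these rows are was not tested.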

How the results depend on the processing

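No member was called lower under any alternative, and the number called higher was 58 to 72 of those tested under the scalings, filters, tests, block, offsets and covariate tried and 63 to 67 with each library left out. It was 5 at a fold change over 2 and 44 with the name rule read by the letter, which drops members. Of the 68 called members, 57 kept their call under all 16 alternatives and 11 lost it under at least 1, of which 4 under length offsets only; 4 members that were not called passed under some alternative. The median log2 fold change was 0.998 with library size only, 0.974 on log2(FPKM + 1) and 0.978 on log2(FPKM + 0.1), where the median of all genes was 0.28, 0.18 and 0.26, and 0.467 with length offsets; it was 0.641 to 0.779 with each library left out. The ratio of summed levels was 1.98 with library size only and 1.99 on FPKM, and 1.56 to 1.71 with each library left out. With each library left out, 2 to 6 members were above the family change and 1 to 4 below. Whether the replicate numbers pair the libraries is not known. The correlations of same-numbered deviations were -0.10, 0.06 and -0.18, and those of different numbers ran from -0.17 to 0.27. With 3 libraries per group these values cannot decide it. With the replicate block 67 members were called higher, 2 were above and 1 was below the family change. The block fit called 3274 genes higher and 3058 lower, against 4054 and 3702 without it. Of all tested genes, 6328 were called higher and 2032 lower with library size only, 6075 and 2015 on log2(FPKM + 1), 6286 and 2038 on log2(FPKM + 0.1), and 3218 and 4861 with length offsets. The direction of Rpl23 turned without I/R replicate 1, within a range of -0.0589 to 1.17, and that of Rpl3 turned to -0.102 with length offsets. With each library left out the log2 ratio ranged from -0.0109 to 0.28 for Rpl36al to Rpl36a, from -0.12 to 0.000707 for Rpl7l1 to Rpl7, from 1.18 to 1.32 for Rps27l and from 0.77 to 1.04 for Rpl22l1. Apart from length offsets and smaller numbers of libraries, the causes were not tested.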

Other observations

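Several members carry small nucleolar RNA genes, which guide the modification of ribosomal RNA, within their introns. The table held 30 rows named Snord or Snora that overlapped 21 members on the same strand. Of these, 7 had enough reads to be tested and 4 were called higher in I/R by edgeR, with 0 lower and log2 fold changes from 0.28 to 2.41. Each row had at most 258 reads over the 6 libraries. Reads of unspliced host transcripts can fall on the same bases and were not separated from those of the small RNAs.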
